A study of Arabidopsis thaliana with 6 samples.

Results

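The genes examined were the 10 core genes of the *Arabidopsis* circadian clock, *CCA1* (AT2G46830), *LHY* (AT1G01060), *TOC1* (AT5G61380), *PRR5* (AT5G24470), *PRR7* (AT5G02810), *PRR9* (AT2G46790), *ELF3* (AT2G25930), *ELF4* (AT2G40080), *LUX* (AT3G46640) and *GI* (AT1G22770). They were selected by gene identifier, and all 10 were among the 26764 genes of the count table. Transcripts had been profiled by RNA-seq in 3 libraries of wild type (wt, Col-0) and 3 libraries of *3h1*, the line that carries the T-DNA insertion alleles h1.1-1, h1.2-2 and h1.3-2 in the 3 genes for linker histone H1. Linker histone is the protein that binds nucleosomes where DNA enters and leaves them. Each library came from pooled whole seedlings, 3 weeks old and grown on agar plates in long days with 16 h of light at 22 °C and 8 h of dark at 18 °C. The comparison asked whether the transcript level of each clock gene differed between seedlings with and without H1.

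The mutant line is labelled Col-0, but the methods of the study state that some Landsberg *erecta* sequence remained after backcrossing, most of it near *H1.3* on chromosome 2. Where else it remained is not stated in the sources used here. Of the 10 genes, *ELF3*, *ELF4*, *PRR9* and *CCA1* lie on that chromosome. They are separated from *H1.3* by 3211913, 8887263, 11385576 and 11398560 bases. According to the same methods, the authors located the remaining sequence and filtered out all reads that overlap it. This step is described with the nucleosome profiling (MNase-seq), and its use on the RNA-seq counts is not stated there. The part of sequence differences in the values of the 10 genes was not tested. The time of day at which the seedlings were frozen is not given in the labels. Transcripts of these genes follow the time of day, so genotype and harvest time cannot be told apart, and values are given library by library.

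The clock of *Arabidopsis* is a loop of repressors that are transcribed one after another through the day. CCA1 and LHY are related MYB-like factors made around dawn, and they repress genes of the evening. The pseudo-response regulators PRR9, PRR7 and PRR5 follow during the day and repress *CCA1* and *LHY*, and TOC1, a member of the same family, does so after dusk. ELF3, ELF4 and LUX form the evening complex, which represses growth and clock genes at night. GI is a large plant protein that peaks late in the day, stabilizes the F-box protein ZTL and, with FKF1, leads to transcription of the flowering regulator *CO*.

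Total counts were between 4753812 and 6174881 per library, of which between 1846022 and 2877178 fell on nuclear genes. The targeted genes followed the labels, since *H1.1* was at 68.3, 103 and 70.8 CPM (counts scaled to the TMM-normalized size of the library) in wt and at 12.5, 19.4 and 17.9 CPM in *3h1* (log2 fold change -2.28, adjusted p = 0.00163 in edgeR's quasi-likelihood test). *H1.2* was at between 69.0 and 87.2 CPM in wt and between 12.8 and 14.2 CPM in *3h1* (log2 fold change -2.58, adjusted p = 4.05e-05). *H1.3* was not analysed here. Leaf mesophyll markers were present in every library, and their summed level was between 6360 and 6681 CPM in wt and between 5260 and 5727 CPM in *3h1*, below wt in all 3 libraries. The sum of 4 root markers was between 8.01 and 12.0 CPM over all libraries. *SCR* made up most of it, at between 6.28 and 7.31 CPM, and *CASP1* was at 0 in *3h1* replicate 1. The sum of 5 floral markers was between 2.23 and 4.49 CPM in wt and between 4.86 and 10.6 CPM in *3h1*, above wt in all 3 libraries. *AP1* and *AP3* were at 0 in wt replicate 3, and *AG* in wt replicate 2 and *3h1* replicate 2. *SEP3* was at 0.821, 2.24 and 0.812 CPM in wt and at 3.88, 3.55 and 4.34 CPM in *3h1* (log2 fold change 1.66, unadjusted p = 0.00318, adjusted p = 0.311, edgeR). The sum of 3 vascular markers was between 70.4 and 88.3 CPM in wt and between 67.9 and 81.3 CPM in *3h1*. Most of that sum was *SUC2*, and *IRX3*, a cellulose synthase of the secondary wall, was at between 4.67 and 5.09 CPM in wt and between 7.10 and 8.65 CPM in *3h1* (log2 fold change 0.71, unadjusted p = 0.00956, adjusted p = 0.360, edgeR). In such bulk samples, fewer cells of a type and less RNA per cell cannot be told apart. *3h1* replicates 1 and 3 stood apart from the rest in technical respects. A fractional count, left where the authors' quantification divided a read between loci, was held by 36.7 and 46.3% of their genes. In the other 4 libraries the share was between 19.0 and 26.7%. The same 2 libraries had the most genes detected, 26570 and 26679 against at most 25787. Their total counts were also the highest, 6174881 and 6113730 against at most 5924967. Several results are also given without these 2 libraries, which leaves replicate 2 as the only *3h1* library. Such values compare 1 library with 3 of wt and carry no measure of the spread within *3h1*.

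Per length of exon, the clock genes fell into a high and a low group in both genotypes. *ELF4* had the highest level in wt at 70.7 ± 5.67 RPKM, which is CPM per kilobase of exon (SD, n = 3 here and for the means that follow). This placed it at the 97.3rd percentile of the genes with an exon length. *PRR5* followed at 36.0 ± 3.44, *TOC1* at 34.2 ± 1.25, *GI* at 31.0 ± 2.29 and *PRR7* at 26.6 ± 2.01 RPKM. *ELF3* was at 15.3 ± 1.52 and *LUX* at 11.3 ± 0.956 RPKM. The low group held the dawn genes *CCA1* and *LHY*, at 0.841 ± 0.454 and 0.332 ± 0.034 RPKM, and the early day gene *PRR9* at 0.411 ± 0.326 RPKM. These 3 genes were at the 32.7th, 17.1st and 20.5th percentile.

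Within that order, the wt values of *PRR5* overlapped those of *TOC1*, and those of *TOC1* overlapped those of *GI*. In the low group, *CCA1* overlapped *PRR9* and *PRR9* overlapped *LHY*, while all other neighbours in the order were separated in all 3 wt libraries. In *3h1* the mean of *TOC1*, 31.7 ± 5.84 RPKM, stood above that of *PRR5*, 28.1 ± 5.26 RPKM, and the values of these 2 genes overlapped there too. The other 8 genes had the following means in *3h1*: *ELF4* 67.6 ± 7.51, *GI* 22.9 ± 2.27, *PRR7* 21.4 ± 1.91, *ELF3* 15.7 ± 1.79, *LUX* 10.5 ± 1.96, *CCA1* 1.11 ± 0.445, *PRR9* 0.804 ± 0.443 and *LHY* 0.452 ± 0.207 RPKM.

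**Figure D1:**
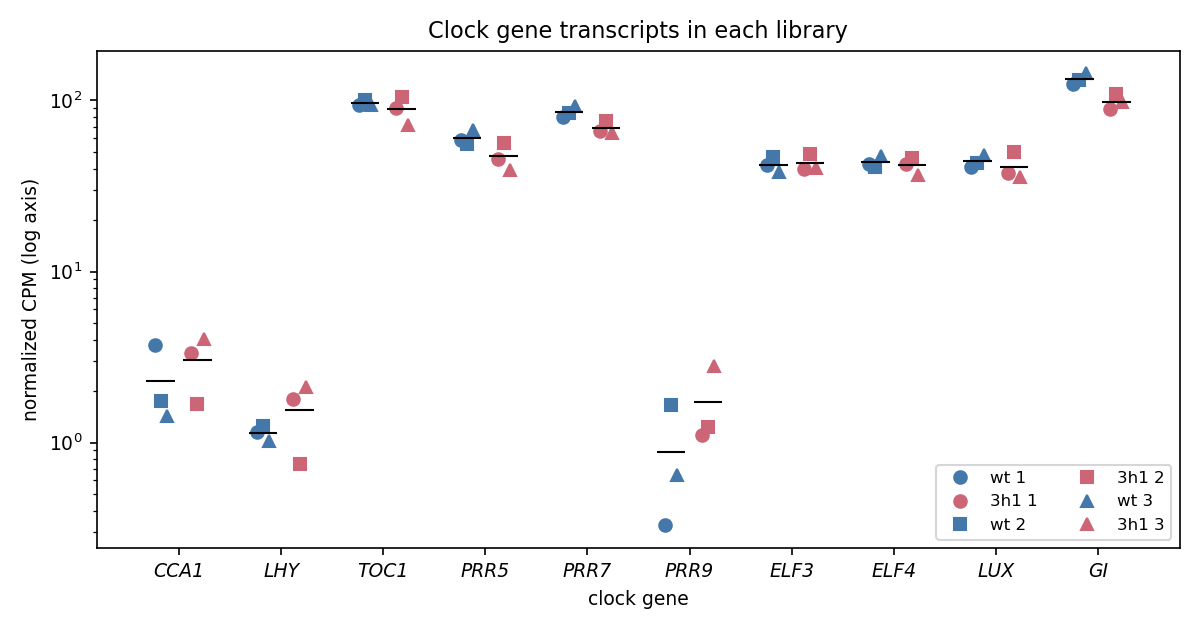
Level of each of the 10 clock genes in each library, in TMM-scaled CPM on a log axis. Points are single libraries (blue wt, red *3h1*, one shape per replicate number) and bars are means of 3 libraries. *CCA1*, *LHY* and *PRR9* lie below 5 CPM in every library, the other 7 genes above 30 CPM, and only *GI* and *PRR7* have all *3h1* points below all wt points.

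Longer lists of clock and output genes, placed by their known phase, include the 10 core genes, 4 in the morning list and 6 in the evening list. They thus hold in part the same values. The 17 genes of the morning list had a median of 1.27, 1.24 and 1.62 RPKM in wt replicates 1, 2 and 3 and of 1.23, 1.87 and 1.48 RPKM in *3h1* replicates 1, 2 and 3. The 13 genes of the evening list had medians of 24.1, 22.3 and 24.9 RPKM in wt and of 20.7, 25.3 and 21.9 RPKM in *3h1*. The evening median was the higher one in all 6 libraries. Single genes of the 2 lists overlapped. *PRR7*, of the morning list, was at between 20.1 and 28.8 RPKM, and the lowest evening gene was at between 2.67 and 4.46 RPKM.

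The classical pairs of opposed genes, taken from the same core genes, showed the same order. *CCA1* and *LHY* together were at 4.85, 2.99 and 2.44 CPM in wt and at 5.14, 2.44 and 6.14 CPM in *3h1*. *TOC1* and *GI* together were at 219, 231 and 238 CPM in wt and at 179, 213 and 170 CPM in *3h1*. Per exon length, the sum of the evening pair was 36.9, 65.7 and 81.8 times that of the dawn pair in wt and 30.1, 74.6 and 23.0 times in *3h1*. The lowest 3 of these ratios belonged to *3h1* replicate 3, *3h1* replicate 1 and wt replicate 1. These were also the 3 libraries with the most genes detected, 26679, 26570 and 25787, against between 24861 and 25183 in the other 3, and the part of that difference in the ratio was not tested.

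**Figure D2:**
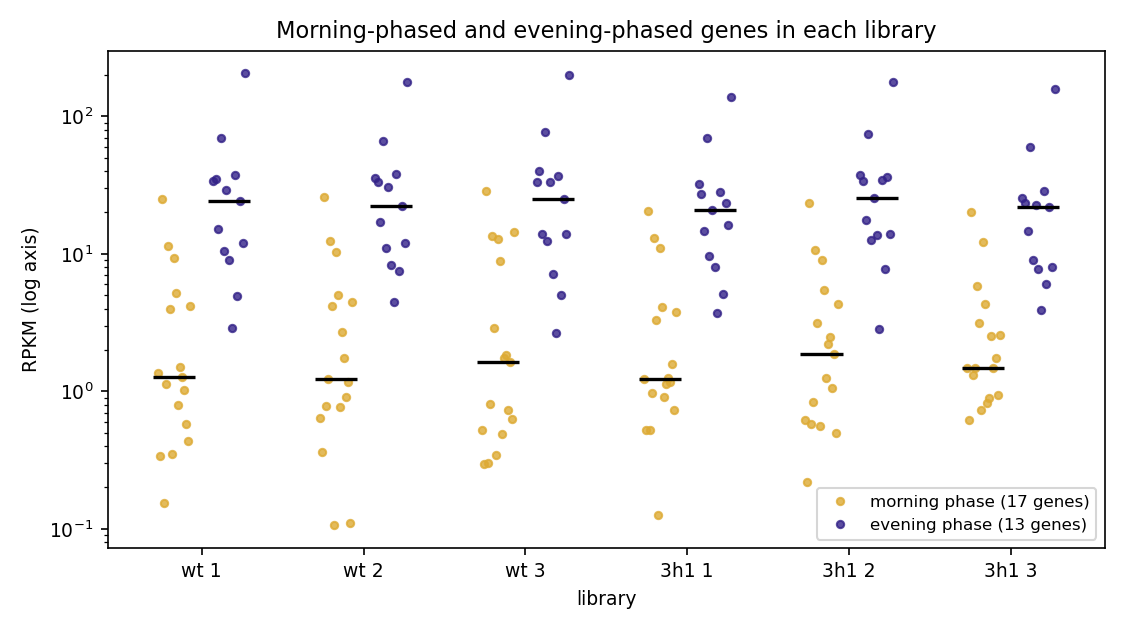
RPKM on a log axis of the 17 morning-phased genes (yellow) and the 13 evening-phased genes (blue) in each of the 6 libraries. Points are genes and bars are medians, which lie between 1.23 and 1.87 RPKM for morning genes and between 20.7 and 25.3 RPKM for evening genes.

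Promoters of the 10 genes were searched for 3 short elements known in clock control, on both strands, from 250 bases before to 50 bases after the annotated start, in the RefSeq sequence of TAIR10.1. The evening element AAAATATCT, to which CCA1, LHY and the related RVE factors bind, was found in the windows of *TOC1*, *PRR5*, *PRR9* and *LUX*, 4 of the 10 genes, and in 2.82% of 27443 windows over all genes. The G-box CACGTG, a site of bZIP and bHLH factors that include light-signalling PIF proteins, was found in *CCA1*, *LHY*, *PRR7*, *PRR9* and *LUX*, 5 of 10, and in 7.68% of all windows. The CCA1-binding site AAAAATCT was found in *PRR5* alone, 1 of 10, against 7.88% of all windows. The evening element and the CCA1-binding site differ in their letters, and their matches in *PRR5* do not overlap. A match is a description of the sequence and not evidence of binding. The evening elements nearest to the start are printed for the evening genes, because they are the textbook link from CCA1 and LHY to these genes. Capitals mark the element, which reads AGATATTTT where it lies on the strand opposite to the gene:
*TOC1*, chr5:24674802-24674830, plus strand: aaatatcatgAGATATTTTctccaagatg
*PRR5*, chr5:8358715-8358743, minus strand: gattttttctAGATATTTTcttttctcca
*LUX*, chr3:17182979-17183007, plus strand: tagaagatctAAAATATCTagctaactcg
*GI*, chr1:8061150-8061178, plus strand: agctcccctcAAAATATCTgtggacatat
*ELF4*, chr2:16735471-16735499, minus strand: atactacaaaAAAATATCTtgcggattat

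The elements of *TOC1*, *PRR5* and *LUX* begin 151, 187 and 53 bases before the start. Those of *GI* and *ELF4* begin 591 and 536 bases before it and were found only with a window of 1000 bases before the start, chosen after the first result was known. *GI* held 2 more copies in that window, 777 and 809 bases before its start. The longer window held the evening element in 6 of the 10 genes and in 7.65% of all windows. The element in *PRR9* begins 26 bases after the start. *CCA1*, *LHY*, *PRR7* and *ELF3* held no match in either window. The G-boxes of the dawn pair, of *PRR7* and of *LUX* are shown for contrast, with CACGTG in capitals:
*CCA1*, chr2:19245388-19245413, plus strand: gtgtatcagaCACGTGtcgacaaact
*LHY*, chr1:37936-37961, minus strand: acaatatcacCACGTGtcgatctgcg
*PRR7*, chr5:642216-642241, minus strand: cccaccattaCACGTGtcagttcaaa
*LUX*, chr3:17182839-17182864, plus strand: cttttcactcCACGTGgctccatctt

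The G-boxes of *CCA1* and *LUX* each begin 193 bases before the start, that of *LHY* 80 and that of *PRR7* 201 bases before it. The members with an evening element near the start therefore included genes that were lower in *3h1* at the unadjusted threshold (*PRR5*) and genes that were not (*TOC1*, *LUX*).

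**Figure D3:**
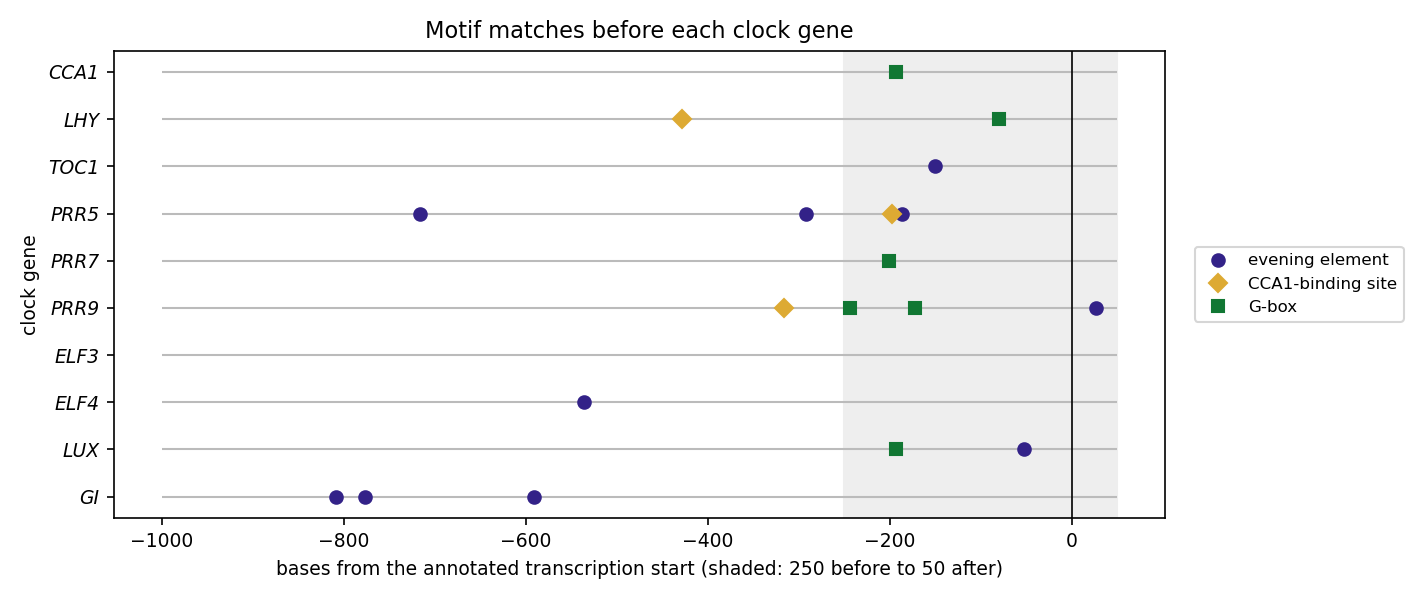
Position of each match to the evening element (blue circles), the CCA1-binding site (yellow diamonds) and the G-box (green squares) relative to the annotated start of each clock gene, in bases, with the window of 250 bases before to 50 after the start shaded. *TOC1*, *PRR5*, *PRR9* and *LUX* have an evening element inside the shaded window, *GI* and *ELF4* only outside it, and *ELF3* has no match.

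In the comparison of *3h1* with wt, no clock gene passed the test after adjustment. The background is low, since 7 of 17453 genes tested (0.0401%) had an adjusted p under 0.05 in edgeR's quasi-likelihood test with Benjamini-Hochberg adjustment. Of the 10 clock genes, 8 passed the filter on low counts and were tested, whereas *LHY* and *PRR9* did not. The smallest adjusted p among the 8 was 0.372. At an unadjusted p under 0.05, 3 of the 8 were lower in *3h1* (*GI*, *PRR7* and *PRR5*) and 0 were higher, where 4.17% of all genes tested were lower and 5.33% higher. The *3h1* libraries were all below the wt libraries for *GI* and *PRR7*, 2 of the 8, as for 7.53% of all genes tested. DESeq2 gave 0 adjusted calls among the clock genes as well, and 1 at an unadjusted p under 0.05, *GI*. The median log2 fold change of the 8 genes was -0.11 and that of all genes tested 0.01.

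*GI* showed the most pronounced difference of the 8. The gene lies on chromosome 1 from 8061751 to 8067790 on the plus strand, with 14 exon blocks that sum to 4303 bases. Its level was 125, 131 and 144 CPM in wt and 89.2, 109 and 97.9 CPM in *3h1*. Each *3h1* library was thus below each wt library, and the gap between the lowest wt and the highest *3h1* library was smaller than the range within either genotype. The mean of wt was 133 ± 9.86 CPM and that of *3h1* was 98.6 ± 9.78 CPM (± SD over 3 libraries), and the fitted level was 26.0% lower in *3h1*. The log2 fold change was -0.43 with a standard error of 0.14 and a 95% interval from -0.75 to -0.12 (edgeR, unadjusted p = 0.0109, adjusted p = 0.372). An exact two-sided permutation test over the 6 libraries gave p = 0.1, the smallest value that 3 libraries against 3 allow. Without *3h1* replicates 1 and 3 the log2 fold change was -0.29. This comparison was chosen after the data were seen and leaves replicate 2 as the only *3h1* library. Without wt replicate 3 or without *3h1* replicate 1 alone, the unadjusted p was 0.0552 and 0.054 (edgeR). With *3h1* replicate 1, 2 or 3 left out in turn, the log2 fold change of *GI* was -0.37, -0.54 and -0.43.

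The pseudo-response regulators divided by level. *PRR7*, a day-phased repressor of *CCA1* and *LHY*, lies on chromosome 5 from 637681 to 642030 on the minus strand, with 8 exon blocks. It was at 80.5, 84.2 and 93.1 CPM in wt and at 66.3, 76.2 and 64.9 CPM in *3h1*, with no overlap. Its log2 fold change was -0.31 with a standard error of 0.14 and a 95% interval from -0.62 to -0.01 (edgeR, unadjusted p = 0.0445, adjusted p = 0.514). *PRR5*, which peaks later in the day and acts on the same genes, lies on chromosome 5 from 8356204 to 8358546 on the minus strand, with 6 exon blocks. It was at 58.5, 55.8 and 66.9 CPM in wt and at 45.5, 56.6 and 39.2 CPM in *3h1*. *3h1* replicate 2 lay within the wt range, and the other *3h1* libraries lay below it. The log2 fold change of *PRR5* was -0.36 with a standard error of 0.16 (edgeR, unadjusted p = 0.0471, adjusted p = 0.520). Both calls were lost at the unadjusted threshold with upper-quartile factors in edgeR (unadjusted p = 0.0504 for *PRR7* and 0.0516 for *PRR5*). Without *3h1* replicates 1 and 3 the log2 fold changes were -0.17 and -0.09. With *3h1* replicate 1, 2 or 3 left out in turn, that of *PRR7* was -0.29, -0.42 and -0.27. That of *PRR5* was -0.34, -0.54 and -0.24 in the same order.

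*TOC1*, the family member of the night, lies on chromosome 5 from 24674963 to 24678550 on the plus strand. It was at 94.3, 100 and 94.0 CPM in wt and at 90.2, 105 and 71.9 CPM in *3h1*, so that the *3h1* libraries lay on both sides of the wt range. Its log2 fold change was -0.11 with a 95% interval from -0.46 to 0.24 (edgeR, unadjusted p = 0.491), and it was 0.02 without *3h1* replicate 3. *PRR9*, the earliest of the series, lies on chromosome 2 from 19232607 to 19235179, 10411 bases before *CCA1*. It had 2, 7 and 3 rounded counts in wt and 7, 7 and 19 in *3h1*. This corresponded to 0.328, 1.66 and 0.645 CPM in wt and 1.11, 1.23 and 2.81 CPM in *3h1*, with *3h1* replicate 3 above all others. The exact 95% Poisson interval of the 19 counts was 11.4 to 29.7, and that of the 7 counts in wt replicate 2 was 2.81 to 14.4, for counting error only. In the fit without a filter on low counts, *PRR9* had a log2 fold change of 0.98 with a 95% interval from -0.43 to 2.38 (edgeR, unadjusted p = 0.162). A difference in *PRR9* was not detected with these libraries.

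The dawn genes were close to the limit of these libraries. *CCA1*, which lies on chromosome 2 from 19245591 to 19248915 on the plus strand, was at 3.70, 1.74 and 1.42 CPM in wt and at 3.35, 1.69 and 4.04 CPM in *3h1*. The high libraries were wt replicate 1 and *3h1* replicates 1 and 3, with 23, 22 and 27 rounded counts, and the low libraries had 7, 7 and 9. The genotypes overlapped, and the log2 fold change was 0.35 with a 95% interval from -0.68 to 1.37 (edgeR, unadjusted p = 0.475). It was 0.93 without wt replicate 1, 0.17 without wt replicate 2, 0.069 without wt replicate 3, 0.58 without *3h1* replicate 2 and 0.080 without *3h1* replicate 3. Without *3h1* replicates 1 and 3 it was -0.49. *LHY*, on chromosome 1 from 33365 to 37871 on the minus strand, had 7, 5 and 5 rounded counts in wt and 12, 4 and 14 in *3h1*. Its level was 1.15, 1.25 and 1.01 CPM in wt and 1.79, 0.747 and 2.10 CPM in *3h1*. *3h1* replicates 1 and 3 were thus above wt for *LHY* and replicate 2 was below it. In the fit without a filter, its log2 fold change was 0.39 with a 95% interval from -0.81 to 1.59 (edgeR, unadjusted p = 0.507). For both genes the interval includes 0 and holds changes of more than 1 log2 unit, so these libraries do not decide on a direction. The part of depth and of spread between libraries in that width was not tested.

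The 3 genes of the evening complex had fitted log2 fold changes between -0.11 and 0.03, and that of *TOC1* was -0.11. *ELF3*, the scaffold of the complex and a thermosensor, lies on chromosome 2 from 11058944 to 11063324. It was at 41.9, 46.5 and 38.2 CPM in wt and at 40.0, 48.7 and 40.5 CPM in *3h1* (log2 fold change 0.03, 95% interval from -0.28 to 0.35, unadjusted p = 0.826, edgeR). Its fitted direction turned to -0.02 without a filter on low counts. *ELF4*, a small protein that strengthens the action of ELF3, is encoded in 1 exon block of 619 bases on chromosome 2 from 16734294 to 16734953. It was at 42.7, 40.9 and 47.7 CPM in wt and at 42.8, 46.0 and 36.8 CPM in *3h1* (log2 fold change -0.07, 95% interval from -0.38 to 0.25, unadjusted p = 0.651, edgeR). *LUX*, the DNA-binding subunit, lies on chromosome 3 from 17183042 to 17186959. It was at 41.0, 43.1 and 48.3 CPM in wt and at 37.5, 49.7 and 35.6 CPM in *3h1* (log2 fold change -0.11, 95% interval from -0.46 to 0.24, edgeR). For each of the 3 genes the genotypes overlapped. *LUX* shares 1507 bases with AT3G46650 on the opposite strand, and *ELF3* shares 183 bases with AT2G08135 and 24 bases with AT2G25940, both also opposite. AT3G46650 and AT2G25940 were at no more than 1.94 and 2.09 CPM in any library, and AT2G08135 was not analysed here. Strand use in counting is not stated in the sources used here, so reads of such pairs cannot be told apart.

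**Figure D4:**
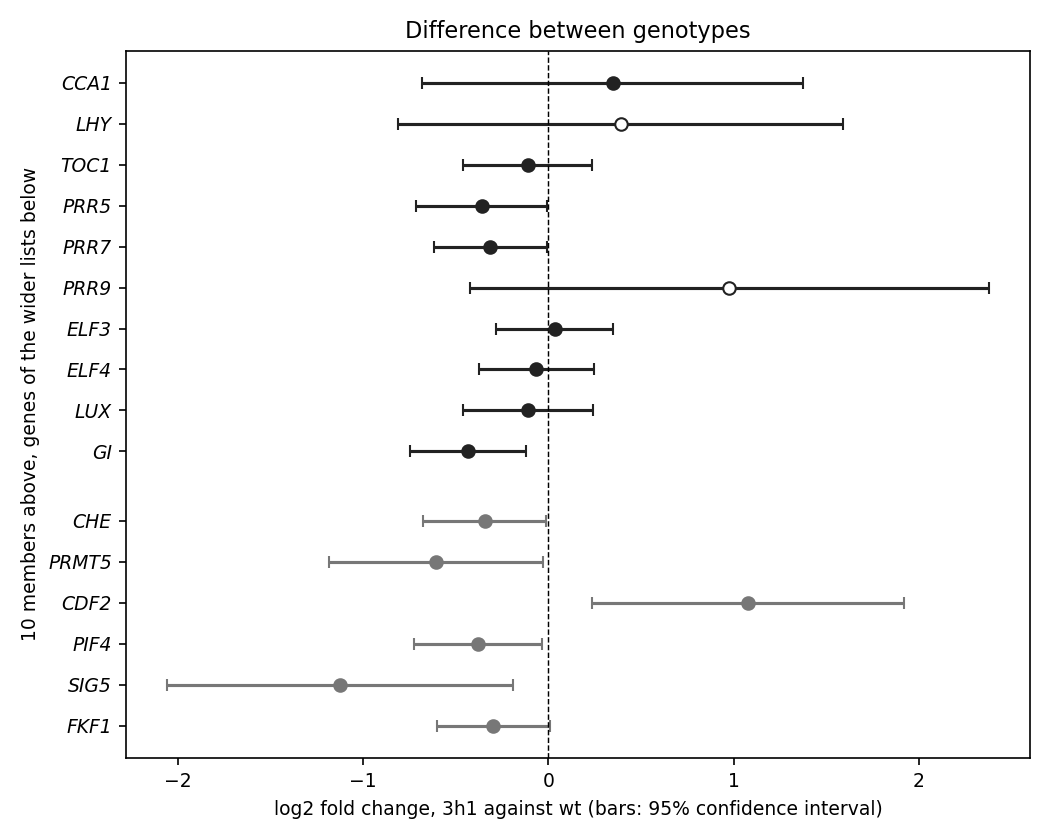
Fitted log2 fold change of *3h1* against wt (points) with its 95% confidence interval (bars) for the 10 clock genes (black) and 6 further clock genes (grey). Open points are *LHY* and *PRR9*, taken from the fit without a filter on low counts. Among the 10, the intervals of *GI*, *PRR7* and *PRR5* lie below 0, and those of the other 7 include 0.

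The libraries of 1 genotype did not move as a unit. In *3h1* replicate 3, all 6 evening members and *PRR7* were below their mean over the 6 libraries, at values between -0.43 for *PRR5* and -0.07 for *ELF3* on the scale of log2(CPM + 1), and *CCA1*, *LHY* and *PRR9* were above it. In *3h1* replicate 2, *CCA1* and *LHY* were instead below their mean, and *TOC1*, *PRR5*, *ELF3*, *ELF4* and *LUX* were above it. *GI* and *PRR7* were below their mean in all 3 *3h1* libraries and above it in all 3 wt libraries, with *GI* at 0.13, 0.19 and 0.33 in wt and at -0.35, -0.07 and -0.22 in *3h1*. The mean of the 17 morning genes minus that of the 13 evening genes, each gene centred in the same way, was -0.11, -0.12 and 0.03 in wt and 0.06, -0.15 and 0.29 in *3h1*. The mean difference between genotypes was 0.14, and the value of *3h1* replicate 2 was the lowest of all 6 libraries. With the 10 core genes alone, the same quantity was -0.12, -0.07 and -0.36 in wt and 0.23, -0.31 and 0.63 in *3h1*. Here *3h1* replicate 2 lay within the range of the wt libraries. Without *3h1* replicates 1 and 3, which leaves *3h1* replicate 2 alone, the difference between genotypes over the full lists was -0.084. The 2 libraries with the highest values, *3h1* replicates 3 and 1, were those with the highest share of fractional counts and the most genes detected. The part of these traits in the value was not tested.

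**Figure D5:**
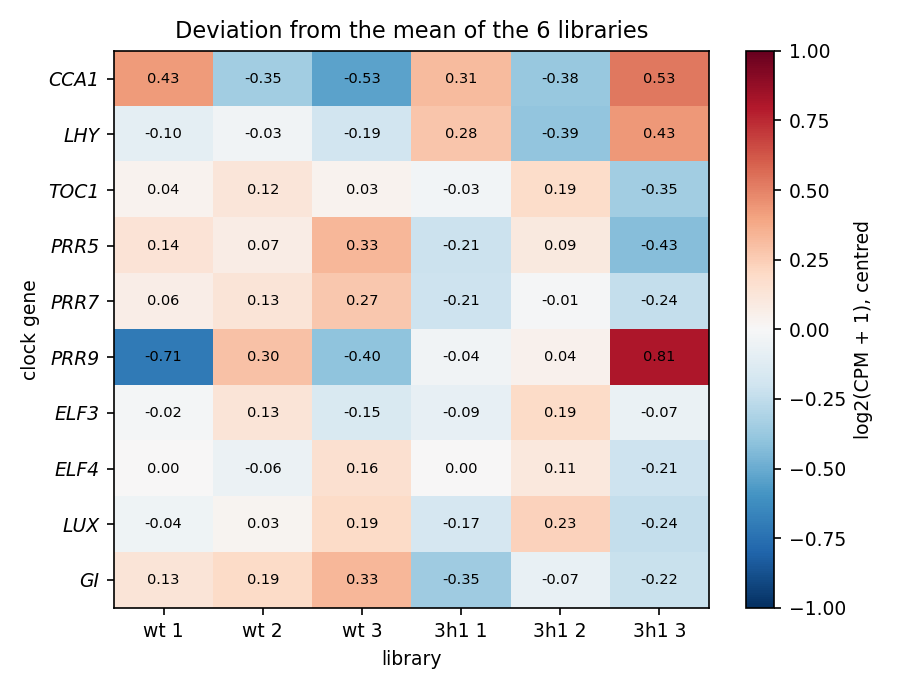
Deviation of each clock gene in each library from its mean over the 6 libraries, on the scale of log2(CPM + 1), where red is above and blue below the mean. *GI* and *PRR7* are above their mean in the 3 wt libraries and below it in the 3 *3h1* libraries, and *3h1* replicates 2 and 3 deviate in opposite directions for *CCA1*, *LHY*, *TOC1*, *PRR5*, *ELF3*, *ELF4* and *LUX*.

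Likeness between the profiles of 2 genes was taken as the root mean square difference of these centred values over the 6 libraries, for which a smaller value is a closer profile. *GI* and *PRR7* were each other's closest core genes, at 0.0774. *PRR7* ranked 45th among 17454 other genes seen from *GI*, and *GI* ranked 118th seen from *PRR7*. *PRR5* was closest to *PRR7* at 0.0977 (rank 109), *TOC1* to *LUX* at 0.110 (rank 503), and *ELF4* and *LUX* were closest to each other at 0.0966 (ranks 449 and 258). *ELF3* was closest to *TOC1* at 0.141 (rank 1401). A flat profile, with no deviation in any library, would lie closer to *ELF3*, at 0.122. The values for *CCA1* and *LHY*, 0.289 (ranks 729 and 3199), and for *PRR9* and its closest core gene *LHY*, 0.400 (rank 1805), were larger, at counts of 27 or fewer per library. Seen from *LHY*, a flat profile would again lie closer than *CCA1*, at 0.279. Among all genes, the closest to *GI* were AT5G19940, *ACR12* and AT1G62600. These values describe 6 libraries that differ in depth and composition, and carry no test. The chloroplast share of the counts was at least 55.5% in each wt library and at most 54.5% in each *3h1* library. Genes of the chloroplast genome were among the closest to *PRR5* (ATCG01050 and ATCG01090) and to *PRR7* (ATCG00120). The part of depth and composition in the profiles was not tested.

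Genes around the core were followed in 6 further lists with 49 genes, of which 45 were in the table and 40 were tested. None had an adjusted p under 0.05 in edgeR or in DESeq2. At an unadjusted p under 0.05, 4 were lower and 1 was higher in *3h1* (backgrounds 4.17 and 5.33%), and 2 passed that threshold in DESeq2. Of the 40 genes, 21 had a log2 fold change below 0 and 19 above, and the *3h1* libraries were all below the wt libraries for 7, beside 7.53% of all genes.

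The partners of the core genes gave 0 calls at either threshold. This covered 6 RVE factors, which are MYB-like relatives of CCA1 and LHY, 3 LNK coactivators, which act with RVE factors, 4 paralogs of core genes and the 3 F-box proteins of the ZTL family. Their median log2 fold changes were -0.17, -0.46, 0.10 and -0.15. The gene with the smallest p among the F-box proteins was *FKF1*, whose product is a blue-light receptor that binds GI. *FKF1* was at 80.8, 81.8 and 80.4 CPM in wt and at 60.6, 74.9 and 62.2 CPM in *3h1*, with no overlap (log2 fold change -0.30, standard error 0.14, unadjusted p = 0.0545, adjusted p = 0.534, edgeR). Without *3h1* replicates 1 and 3 its log2 fold change was -0.11. The profile of *FKF1* was the closest of all listed clock genes to that of *PRR7*, at 0.0725. *FKF1* shares 21 bases with AT1G68060 on the opposite strand, which was at between 22.7 and 29.0 CPM.

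The gene with the smallest p among the LNK coactivators was *LNK2*, at 15.1, 14.7 and 25.7 CPM in wt and 12.1, 15.9 and 12.7 CPM in *3h1* (log2 fold change -0.46, unadjusted p = 0.0756, edgeR), where wt replicate 3 was high and the rest overlapped. Without that library the log2 fold change of *LNK2* was -0.16 (unadjusted p = 0.466, edgeR), and without *3h1* replicates 1 and 3 it was -0.22. Among the RVE factors it was AT4G01280, at 4.76, 8.23 and 5.47 CPM in wt and 4.62, 3.36 and 4.37 CPM in *3h1*, with no overlap (log2 fold change -0.55, unadjusted p = 0.0892, edgeR). Among the paralogs it was *PRR3*, at 25.1, 23.2 and 19.9 CPM in wt and 22.5, 38.1 and 21.6 CPM in *3h1* (log2 fold change 0.26, unadjusted p = 0.264, edgeR). Here *3h1* replicate 2 alone was high, and without it the log2 fold change was -0.07, and without *3h1* replicates 1 and 3 it was 0.75.

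Of 13 other clock regulators tested, 2 were lower at an unadjusted p under 0.05 (background 4.17%) and 0 were higher. *CHE*, a TCP factor that represses *CCA1*, was at 26.1, 25.2 and 28.0 CPM in wt and at 22.2, 17.9 and 22.1 CPM in *3h1*, with no overlap (log2 fold change -0.35, unadjusted p = 0.0424, adjusted p = 0.505, edgeR). It was -0.56 without *3h1* replicates 1 and 3. *PRMT5*, an arginine methyltransferase that affects splicing of clock transcripts, was at 7.74, 8.72 and 14.2 CPM in wt and at 7.16, 7.29 and 5.68 CPM in *3h1* (log2 fold change -0.61, unadjusted p = 0.0415, edgeR). The *PRMT5* groups did not overlap, but wt replicate 3 was far above the others, and the log2 fold change was -0.30 without it.

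Of 11 clock outputs tested, 7 had a log2 fold change above 0 and 4 below 0. At an unadjusted p under 0.05, 1 was higher and 2 were lower in *3h1*, against backgrounds of 5.33 and 4.17%. *CDF2*, a DOF factor that represses *CO* in the morning, was at 10.7, 6.48 and 4.67 CPM in wt and at 18.5, 7.10 and 20.9 CPM in *3h1* (log2 fold change 1.08, standard error 0.38, unadjusted p = 0.0165, adjusted p = 0.400, edgeR). *3h1* replicate 2 lay within the wt range, and without *3h1* replicates 1 and 3 the log2 fold change of *CDF2* was -0.05. *PIF4*, a growth-promoting factor repressed by the evening complex, was at 29.4, 28.4 and 33.1 CPM in wt and at 19.5, 24.2 and 26.2 CPM in *3h1*, with no overlap (log2 fold change -0.38, unadjusted p = 0.0331, adjusted p = 0.482, edgeR). *SIG5*, a nuclear-encoded sigma factor of chloroplast transcription, was at 11.0, 11.7 and 38.0 CPM in wt and at 9.90, 11.4 and 6.73 CPM in *3h1* (log2 fold change -1.12, unadjusted p = 0.0224, adjusted p = 0.433, edgeR). The genotypes overlapped for *SIG5*, and without wt replicate 3 the log2 fold change was -0.30 with an unadjusted p of 0.27 (edgeR).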

How the data were processed

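Values are expected counts, 1 per gene and library, as deposited by the authors before any normalization. Total RNA was depleted of ribosomal RNA and sequenced on an Ion Proton, reads were aligned to TAIR10, and Partek's expectation-maximization divided multi-mapping reads among ARAPORT11 genes. A second deposited table holds the authors' own comparison (ratios, p values, FDR and means) and was not used. The 6 sample columns were mapped by label, and 0 further columns were left out.

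Expected counts were rounded, filtered with filterByExpr, scaled by TMM and tested with edgeR 4.0.16 (R 4.3.3) over 17453 genes with Benjamini-Hochberg adjustment. Library sizes in the fit were taken after the filter and were between 4730410 and 6117233 counts. CPM were divided by TAIR10.1 exon length for RPKM, available for 26511 genes. Centred values use log2(CPM + 1). Poisson intervals cover counting error only. Labels name biological replicates of pooled seedlings. The procedure was tested on simulated data.

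Named genes were all members, the H1 genes, and from each further list the genes with an unadjusted p under 0.05 or else that with the smallest p. Members, lists and tests were chosen with earlier results of these data known. Alternatives were DESeq2 1.42.0, limma 3.58.1 voom, DESeq2 size factors, upper-quartile factors, other filters (none, or at least 10 counts in every library), nuclear genes only, unrounded counts, a replicate block, each library left out, other pseudocounts (0.1 and 0.5) and other scalings. A promoter window of 1000 bases and removal of *3h1* replicates 1 and 3 were chosen after seeing the data. The removal leaves replicate 2 as the only *3h1* library. Promoter windows were read from TAIR10.1 with Python 3.11.15. *EFL3*, *XCT*, *FIO1*, *GRP7*, *WOX5* and *H1.3* were not analysed here.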

Additional observations from a re-analysis of the deposited data

How the results depend on the processing

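In all alternatives tried, 0 of the core clock genes and 0 of the further clock genes had an adjusted p under 0.05, and both *H1* genes had one. *GI* was lower in *3h1* in each, with log2 fold changes between -0.54 and -0.37 over the alternatives other than the removal of *3h1* replicates 1 and 3. The number of core genes lower at an unadjusted p under 0.05 was 3. It was 1 with upper-quartile factors, with DESeq2, without a count filter and with at least 10 counts in every library, and between 0 and 3 with 1 library left out. The number of further clock genes at that threshold was 5. It was 2 with DESeq2, 3 with at least 10 counts in every library, and between 0 and 8 with 1 library left out (0 without wt replicate 3, 8 without *3h1* replicate 2). Over all genes, the 7 adjusted calls became 33 with DESeq2, 12 without a filter, 3 with at least 10 counts in every library and between 3 and 96 with 1 library left out (96 without *3h1* replicate 2). The 727 lower genes became 416 with DESeq2. The 931 higher genes became 579 with DESeq2, 1547 without a filter, between 647 and 1730 with 1 library left out (without *3h1* replicate 2) and 400 without *3h1* replicates 1 and 3.

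With 1 library left out, *CCA1* was between 0.069 and 0.93. Directions turned for genes whose main value was near 0 or rested on few libraries. Without *3h1* replicates 1 and 3, which leaves 1 *3h1* library, the log2 fold changes were -0.49 for *CCA1*, 0.13 for *TOC1*, 0.075 for *ELF4*, 0.18 for *LUX* and -0.055 for *CDF2*. *ELF3* turned to -0.017 without a filter. With 1 library left out the values were between -0.27 and 0.020 for *TOC1* and between -0.16 and 0.020 for *ELF4*, above 0 without *3h1* replicate 3. They were between -0.091 and 0.090 for *ELF3*, below 0 without wt replicate 3 or *3h1* replicate 2, and between -0.074 and 0.41 for *PRR3*, below 0 without *3h1* replicate 2. For *LUX* they ranged from -0.30 without *3h1* replicate 2 to -0.018 without *3h1* replicate 3. The morning minus evening difference between genotypes, 0.14, was 0.37 with the core genes alone, 0.24 and 0.18 with pseudocounts of 0.1 and 0.5, 0.079 with library totals, 0.18 with nuclear totals, between 0.023 and 0.25 with 1 library left out and -0.084 without *3h1* replicates 1 and 3. The leaf marker *LHCB1.1* passed the adjusted threshold with DESeq2 (log2 fold change -0.80, adjusted p = 0.0108) and not in edgeR (adjusted p = 0.217). The CCA1-binding site was found in 3 of 10 core genes with the longer window, beside 22.1% of all windows, and in 1 with the shorter one, beside 7.88%. The longer window holds more matches by its construction, and the cause of the other differences was not tested.

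Replicate numbers are shared by the genotypes. With each gene centred within its genotype, libraries with the same number had a mean correlation of -0.108 across genes, and other pairs 0.0537. Centring over 3 libraries ties these 2 values to each other, so they cannot decide whether the numbers pair the samples. In the fit with a replicate block, 3 of all genes passed the adjusted threshold, and 1 core gene (*GI*, log2 fold change -0.44, unadjusted p = 0.023) and 2 further clock genes passed the unadjusted threshold.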
